A study of Homo sapiens and Mus musculus with 20 samples.

Results

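The 10 genes described here encode the nuclear lamina and proteins of the inner nuclear membrane that hold it: LMNA, LMNB1, LMNB2, TMPO, LBR, EMD, BANF1, LEMD3, SUN1 and SUN2. They were chosen by name, and all 10 of 10 were found among the 17554 genes listed in 12 RNA-seq libraries of IMR90, a human fetal lung fibroblast line. All 12 libraries came from cells labelled wild type. They formed 3 experiments of 4 libraries, each with 2 treated and 2 untreated libraries. In the first, A485, an inhibitor of the acetyltransferase p300, was compared with Control2. In the second, MS-275, which blocks histone deacetylases of class I, was compared with Control3. In the third, cells given pyruvate were compared with Control6. The paper describes the IMR90 cells it gave pyruvate as senescent, which the deposited titles do not state. The study used A485 and MS-275 to inhibit enzymes that it treats as writers and erasers of histone lactylation and pyruvate to raise this mark. It asked how each affected senescence and gene expression. The paper reports that both inhibitors lowered histone lactylation and sped up senescence, while histone acetylation fell with A485 and rose with MS-275. Doses, treatment times and passage numbers were not in the labels used here, and IMR90 is a single line. Nothing in the labels says that replicates were separate cultures, so p-values measure the spread between these libraries, which may be technical.

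The nuclear lamina is a mesh of intermediate filament proteins, the A-type and B-type lamins, that lies under the inner nuclear membrane, supports the nucleus and holds heterochromatin at its edge. Membrane proteins tie it down: LBR binds B-type lamins, the LEM-domain proteins bind chromatin through BANF1, and the SUN proteins reach across the envelope to the cytoskeleton. In fibroblasts, loss of LMNB1 is a widely used marker of senescence, and LMNB1, TMPO and LBR are genes whose transcripts are known to be more abundant in dividing cells.

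Among the lamins, LMNA (ENSG00000160789, chr1:156082573-156140081) encodes lamins A and C, which a count per gene cannot separate. LMNB1 (ENSG00000113368, chr5:126776623-126837020) and LMNB2 (ENSG00000176619, chr19:2427638-2456959) encode the B-type lamins. TMPO (ENSG00000120802, chr12:98515579-98550351) encodes the LAP2 proteins, of which some isoforms sit in the membrane and one is free in the nucleus. EMD (ENSG00000102119, chrX:154379273-154381574) encodes emerin and LEMD3 (ENSG00000174106, chr12:65169583-65248355) encodes MAN1, both LEM-domain proteins of the inner membrane. BANF1 (ENSG00000175334, chr11:66002228-66004149) encodes the DNA-binding partner of the LEM domain. LBR (ENSG00000143815, chr1:225401502-225428925) encodes the lamin B receptor, which is also a sterol reductase. SUN1 (ENSG00000164828, chr7:816615-896435) and SUN2 (ENSG00000100242, chr22:38733290-38794143) encode the inner part of the bridge to the cytoskeleton. Positions are those of GENCODE v44 on hg38. Exons of TMPO, SUN1 and SUN2 overlap exons of other genes listed in the files (TMPO-AS1, GET4, DNAL4 and GTPBP1 among them), and the strand setting of the counting was not given in the sources used here, so part of those reads could be shared.

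The promoters of LMNB1, TMPO, LBR and LEMD3 are shown because these were the members called higher with pyruvate. RefSeq windows (GRCh38.p14) run from 250 bases before to 50 bases after a transcript start, and 9 of the 10 members had at least 1. The windows are chr5:126776373-126776672 and chr5:126776886-126777185 for the 2 LMNB1 starts, chr12:98515323-98515622 for the first TMPO start and chr12:65169333-65169632 for LEMD3, all on the plus strand, and chr1:225428772-225429071 on the minus strand for LBR. Capitals mark 4 short motifs found in promoters of many genes of the cell cycle, searched on both strands: TTTGAA (the cell cycle homology region), CCAAT, and the E2F sites TTCCCGC and TTGGCGC. None of these motifs can lie inside another.
LMNB1, first start: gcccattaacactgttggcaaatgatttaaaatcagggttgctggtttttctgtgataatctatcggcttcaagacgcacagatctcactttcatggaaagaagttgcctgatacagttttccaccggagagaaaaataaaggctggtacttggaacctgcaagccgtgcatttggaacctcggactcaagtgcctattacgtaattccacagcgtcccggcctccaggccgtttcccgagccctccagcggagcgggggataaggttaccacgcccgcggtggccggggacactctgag
LMNB1, second start: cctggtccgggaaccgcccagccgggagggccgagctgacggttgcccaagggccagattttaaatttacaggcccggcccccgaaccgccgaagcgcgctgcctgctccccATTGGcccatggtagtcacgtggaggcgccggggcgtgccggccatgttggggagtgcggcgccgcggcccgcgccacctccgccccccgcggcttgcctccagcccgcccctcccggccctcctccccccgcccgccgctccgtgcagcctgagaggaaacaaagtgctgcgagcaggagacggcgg
TMPO: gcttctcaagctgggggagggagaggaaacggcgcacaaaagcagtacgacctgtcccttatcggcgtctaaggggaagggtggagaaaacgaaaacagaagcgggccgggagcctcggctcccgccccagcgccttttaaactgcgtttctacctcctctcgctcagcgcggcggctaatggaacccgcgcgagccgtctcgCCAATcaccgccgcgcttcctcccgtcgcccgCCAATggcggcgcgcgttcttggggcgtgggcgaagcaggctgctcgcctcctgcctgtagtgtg
LBR: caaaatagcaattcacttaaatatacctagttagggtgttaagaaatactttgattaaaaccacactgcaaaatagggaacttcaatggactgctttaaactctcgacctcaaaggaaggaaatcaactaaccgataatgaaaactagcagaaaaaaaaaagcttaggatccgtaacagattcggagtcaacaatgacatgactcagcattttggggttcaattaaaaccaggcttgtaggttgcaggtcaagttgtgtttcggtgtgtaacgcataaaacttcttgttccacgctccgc
LEMD3: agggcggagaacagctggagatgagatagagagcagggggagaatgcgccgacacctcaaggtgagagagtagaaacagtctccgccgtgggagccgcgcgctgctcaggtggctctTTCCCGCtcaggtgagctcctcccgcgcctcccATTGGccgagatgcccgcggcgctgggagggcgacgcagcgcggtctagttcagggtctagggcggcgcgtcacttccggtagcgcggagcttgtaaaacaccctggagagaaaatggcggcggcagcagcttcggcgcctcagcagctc

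The CCAAT letters stood at 1 place in the second LMNB1 window, at 2 places in the TMPO window and at 1 place in the LEMD3 window, against 34.6% of all 35116 windows holding them. The E2F site TTCCCGC stood once in the LEMD3 window, and 6.55% of all windows hold it. Neither the first LMNB1 window nor the LBR window held any of the 4 motifs. TTTGAA, found in 15.2% of all windows, and TTGGCGC, found in 3.04%, stood in none of the 5 windows shown. Windows of members not called with pyruvate held motifs too, with CCAAT in LMNA, EMD and SUN2 and TTCCCGC in LMNA and BANF1. TTTGAA stood in windows of LMNB2 and SUN2. All of these are matches of letters in short windows and say nothing of which factors bind there.

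Reads assigned to the listed genes numbered 24179065 to 46971227 per library. Values are read counts divided by 1 size factor per library, called normalised read counts here, and the 3 experiments were scaled separately. All 9 fibroblast markers examined were listed in each experiment, with summed values of 428385 or more per library, while the summed lists of epithelial, endothelial, leukocyte and muscle markers reached at most 208 in any library, and CDH1, PECAM1, PTPRC and ACTA1 were not listed. In the A485 experiment 8 of the 9 fibroblast markers were called lower, and their sum went from 1359630 and 1517070 in Control2 to 428385 and 502190. EPCAM, the 1 epithelial marker listed, was called higher there, from 64.2 and 47.7 to 208 and 177 (log2 fold change 1.78). The part of these shifts in the A485 results below was not tested. In bulk libraries a smaller number of cells of one kind and less RNA per cell cannot be told apart.

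LMNA stood highest in all 3 control groups when values were divided by the length of the longest transcript. The means ± SD were 8969 ± 619 per kb in Control2, 8352 ± 1066 in Control3 and 7889 ± 35.0 in Control6 (n = 2 each). BANF1 came second in each, at 4129 ± 677, 4649 ± 1521 and 3155 ± 260 per kb. EMD came next in each, at 2570 ± 245, 2518 ± 482 and 2302 ± 2.71 per kb, though in Control2 its range overlapped that of LMNB2. Below SUN1, the neighbouring ranks of TMPO, LMNB1, LBR, SUN2 and LEMD3 overlapped in Control2, and no order among neighbours could be read there. LMNB2 was above LMNB1 in every library.

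In Control6 the 4 genes whose promoters are shown above stood lowest. TMPO was at 22.1 ± 0.0345 per kb, below LBR at 26.6 ± 7.42, LMNB1 at 31.3 ± 0.735 and LEMD3 at 37.9 ± 11.5, and each of these 4 overlapped its neighbour in the order, while SUN2, next above at 372 ± 11.7, was clear of them. In CPM, the reads scaled to the total of the genes listed in all 3 experiments, LMNB1 was 119, 27.8, 44.5 and 25.8 CPM in the Control2 and Control3 libraries and 3.61 and 3.76 in Control6. TMPO was 57.2 to 143 in the first 4 and 3.08 and 3.10 in Control6, and LBR was 42.5 to 84.3 against 2.75 and 4.13. LEMD3 followed with 35.1 or more against 7.43 and 4.83. LMNB2, BANF1 and SUN2 lay within the range of the other controls, and LMNA, EMD and SUN1 lay above it, SUN1 at 266 and 257 against 124 to 150. These controls belong to separate experiments, so experiment and cell state cannot be told apart and no test was made. The paper describes the cells it gave pyruvate as senescent.

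**Figure D1:**
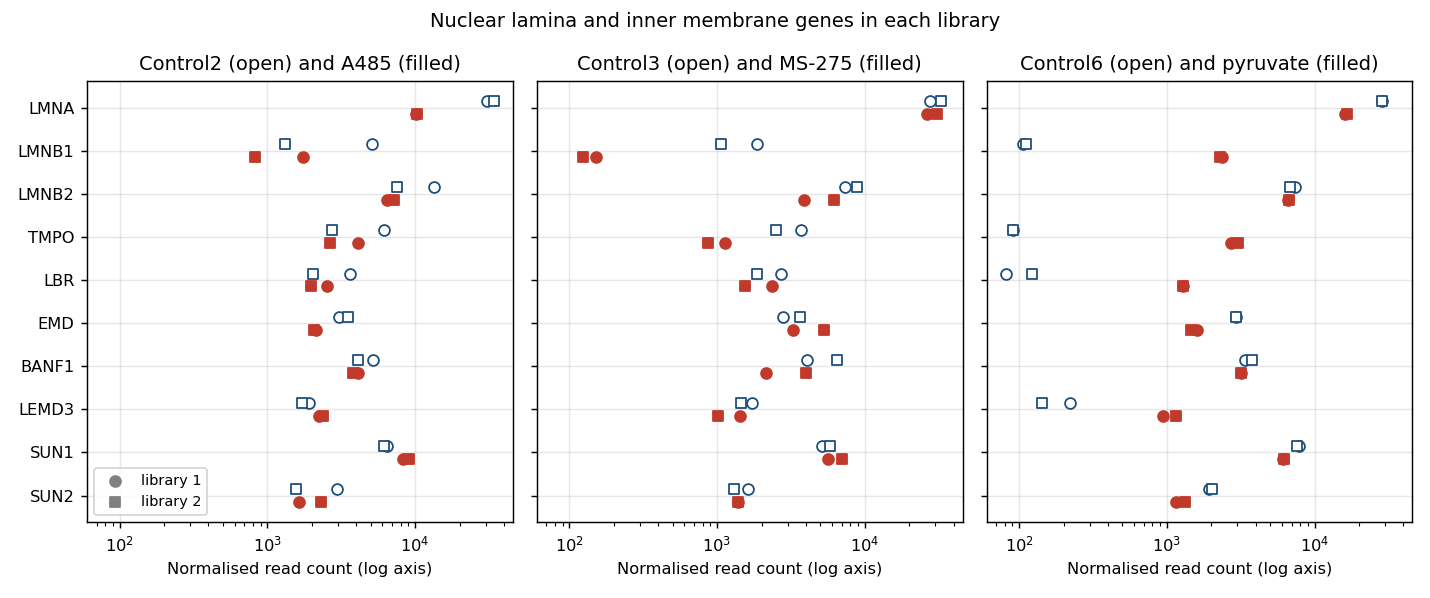
Normalised read count (log axis) of the 10 genes in each library, open symbols for the untreated and filled symbols for the treated libraries, circles for library 1 and squares for library 2. LMNB1, TMPO, LBR and LEMD3 lie between 81.5 and 220.01 in Control6 and between 938 and 3039 with pyruvate, while LMNA separates cleanly in the A485 experiment.

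With A485, LMNA fell, and it was the only member called. It was 30848 and 34012 in the 2 Control2 libraries and 10142 and 10367 with A485. The groups lay far apart and the libraries within each agreed closely. The log2 fold change on log2(value + 1) was -1.66 (SE 0.173, 95% interval -2.08 to -1.24, limma adjusted p = 0.00479), with A485 at 0.317 of Control2. A member was called at an adjusted p under 0.05 and a change over 1 on the log2 scale. Of 16084 genes tested, 7.06% were called lower and 3.31% higher, and 1 of 10 members called lower is close to that background. When either A485 library was left out, the value stayed at -1.64 or -1.68 but the call was lost, with limma adjusted p of 0.0854 and 0.0796.

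Both B-type lamins were lower on average without passing the test. LMNB1 was 5113 and 1326 in Control2 and 1757 and 821 with A485. The groups overlapped, since Control2 replicate 2 lay below A485 replicate 1, and Control2 replicate 1 stood far above the other 3 libraries. The log2 fold change was -1.12 (SE 0.664, limma adjusted p = 0.310) and ranged from -2.09 to -0.14 when single libraries were left out, the weakest being without Control2 replicate 1. LMNB2 was 13494 and 7500 in Control2 and 6496 and 7175 with A485, without overlap, and its log2 fold change of -0.56 had a limma adjusted p of 0.255. The same control library was the highest of the 4 for TMPO, LBR, BANF1 and SUN2. It was also highest for the 10 proliferation markers, whose summed value was 51452 and 18359 in Control2 and 19000 and 13744 with A485. The part of this library's state in the lamina values was not tested beyond leaving it out.

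Among the membrane proteins and BANF1 none was called by limma, edgeR or DESeq2. Over all 10 members 3 had an unadjusted limma p under 0.05, as had 4949 of the 16084 genes tested. EMD came nearest, at 3078 and 3523 in Control2 and 2142 and 2067 with A485 (log2 fold change -0.65, SE 0.167, limma adjusted p = 0.0573). SUN1 leaned the other way, at 6438 and 6133 in Control2 and 8271 and 9139 with A485 (log2 fold change 0.47, SE 0.160, limma adjusted p = 0.112). LEMD3 was 1930 and 1712 against 2249 and 2396, a log2 fold change of 0.35. BANF1 at 5230 and 4143 against 4092 and 3785 had a log2 fold change of -0.24. TMPO (-0.31), LBR (-0.27) and SUN2 (-0.14) had overlapping groups, and their signs turned when Control2 replicate 1 was left out. With equal library totals they were above 0 but below the median of all genes, which that scaling moved to 0.40. Groups did not overlap for 6 of the 10 members, and 61.0% of all genes tested had groups that did not overlap. The median log2 fold change was -0.29 over the members and 0.01 over all genes.

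The make-up of the lamins also differed. Per kb of transcript, LMNA made up 66.1% and 82.5% of the 3 lamins in Control2 and 59.5% and 61.6% with A485. The share of LMNB2 was 22.5% and 14.2% in Control2 and 29.8% and 33.3% with A485. LMNB1 per 100 LMNA was 17.2 and 4.06 in Control2 and 18.0 and 8.24 with A485, so this ratio overlapped between the groups.

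Of 57 other envelope and pore genes tested with A485, 1 was called higher and 1 lower, beside 3.31% and 7.06% of all genes. Counts below at an unadjusted limma p under 0.05 stand beside 4949 of 16084 genes, and DESeq2 counts beside 14.5% of all genes called. The pair of sterol reductases related to LBR diverged in value. TM7SF2 rose from 200.1 and 286 in Control2 to 2940 and 2441 (log2 fold change 3.48, SE 0.255, limma adjusted p = 0.00205; 0.0567 without A485 replicate 1), whereas DHCR7, which makes cholesterol from its last precursor, had a value of -0.55 that was not called. SYNE3, an outer membrane partner of the SUN proteins, fell from 976 and 2181 to 256 and 489 (log2 fold change -2.04, limma adjusted p = 0.0430), a call that was lost with a pseudocount of 0.1 and when any single library was left out (-2.62 to -1.46, limma adjusted p 0.0606 to 0.256). TOR1AIP1, which activates torsin ATPases, had a log2 fold change of 0.88 (limma adjusted p = 0.0222), under the fold limit. None of the 24 pore subunits was called by limma, edgeR or DESeq2, and 3 had an unadjusted p under 0.05, with SEC13 at -0.94 (limma adjusted p = 0.0186) and NUP62 at -0.63. The 3 tools called none of the 5 prelamin processing enzymes, of which 1 had an unadjusted p under 0.05, with ICMT at 0.40 and RCE1 at 0.54 on the log2 scale. The 5 other inner membrane proteins tested had 0 calls and 0 with an unadjusted p under 0.05, with LEMD2 at 0.28 and TMEM43 at -0.23. Among the 14 factors of envelope breakdown and resealing 4 had an unadjusted p under 0.05 and DESeq2 called 2. PLK1 at -1.94 and CHMP7 at 0.48 had the smallest limma p and were not called by it. Of the 10 proliferation markers CENPF fell (-2.13, limma adjusted p = 0.0421), to -1.43 and no call without Control2 replicate 1, and without either A485 library it was not called. BIRC5 at -1.65 was not called by limma. The median of these markers was -1.12, 4 had an unadjusted limma p under 0.05, and DESeq2 called 5 of 10.

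**Figure D2:**
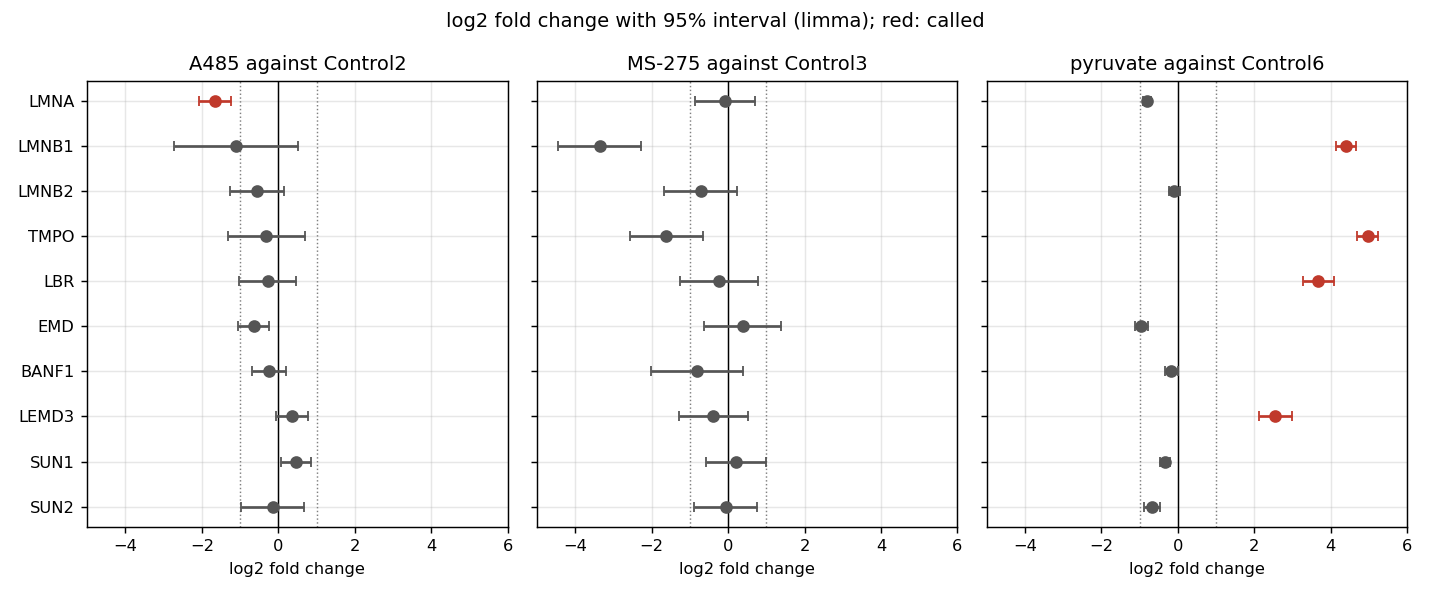
log2 fold change of treated against control libraries with the 95% interval of the limma fit, for the 10 genes in the 3 experiments, with red for called genes and dotted lines at a change of 1. The intervals are narrow in the pyruvate experiment, where 4 genes are called, and wide with MS-275, where LMNB1 at -3.35 is not called. Libraries within a group differed least in the pyruvate experiment and most with MS-275, so adjusted p cannot be compared in size between experiments.

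With MS-275, LMNB1 and TMPO had the largest differences among the members, and no member was called. LMNB1 was 1853 and 1065 in Control3 and 151 and 124 with MS-275. Both treated libraries lay below both controls, at 0.0820 of the control within replicate number 1 and 0.117 within number 2. The log2 fold change was -3.35 (SE 0.419, 95% interval -4.44 to -2.26), with an unadjusted limma p of 0.000578 and an adjusted p of 0.163. TMPO was 3722 and 2504 in Control3 and 1134 and 874 with MS-275, and the groups did not overlap. Its treated value was 0.305 of the control within number 1 and 0.349 within number 2, and the log2 fold change was -1.62 (SE 0.368, limma adjusted p = 0.270).

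No gene of 15883 was called in this experiment by limma (0%) or by edgeR on the recovered reads, while 1730 had an unadjusted limma p under 0.05. DESeq2 on the recovered reads called 348 genes higher and 227 lower. LMNB1 (-3.41, adjusted p = 5.88e-08) and TMPO (-1.63, adjusted p = 0.0315) were among those DESeq2 called. Without Control3 replicate 1 or Control3 replicate 2 the limma value of LMNB1 was -2.95 or -3.75. Without MS-275 replicate 1 or MS-275 replicate 2 it was -3.50 or -3.21. The libraries within each group differed widely here, and the absence of a call is not evidence that a gene kept its level.

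LMNA hardly differed with MS-275, at 27476 and 32928 in Control3 and 26243 and 30846 with MS-275. Its log2 fold change of -0.08 had a 95% interval from -0.86 to 0.70, and changes within those bounds were not excluded. LMNB2 was 7381 and 8836 in Control3 and 3868 and 6214 with MS-275, a log2 fold change of -0.72 (SE 0.369, limma adjusted p = 0.609). BANF1 was 4056 and 6497 against 2145 and 4007, with a log2 fold change of -0.81. Within replicate number both genes were lower in each pair, BANF1 at 0.529 and 0.617 of its control and LMNB2 at 0.524 and 0.703.

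The remaining membrane proteins differed by less. LEMD3 was 1715 and 1450 in Control3 and 1428 and 1010 with MS-275 (log2 fold change -0.39). EMD was 2795 and 3671 against 3260 and 5320 (0.38) and SUN1 was 5146 and 5787 against 5679 and 7006 (0.21), both higher with MS-275 within each replicate number though the groups overlapped. LBR was 2719 and 1863 in Control3 and 2347 and 1550 with MS-275 (-0.24), and SUN2 was 1611 and 1297 against 1378 and 1386 (-0.06). Limma adjusted p was 0.813 or higher for these 5 genes. Groups did not overlap for 5 of the 10 members, against 38.9% of all genes tested. The median log2 fold change was -0.32 over the members and -0.01 over all genes.

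LMNB1 per 100 LMNA, per kb of transcript, was 7.02 and 3.37 in Control3 and 0.599 and 0.417 with MS-275. LMNB1 made up 5.48% and 2.71% of the 3 lamins in Control3 and 0.534% and 0.359% with MS-275, while the LMNB2 share was 16.4% and 16.8% against 10.3% and 13.5%. The 10 proliferation markers moved alongside, with a summed value of 25440 and 13767 in Control3 and 5304 and 5251 with MS-275, and their part in the LMNB1 and TMPO values was not tested.

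**Figure D3:**
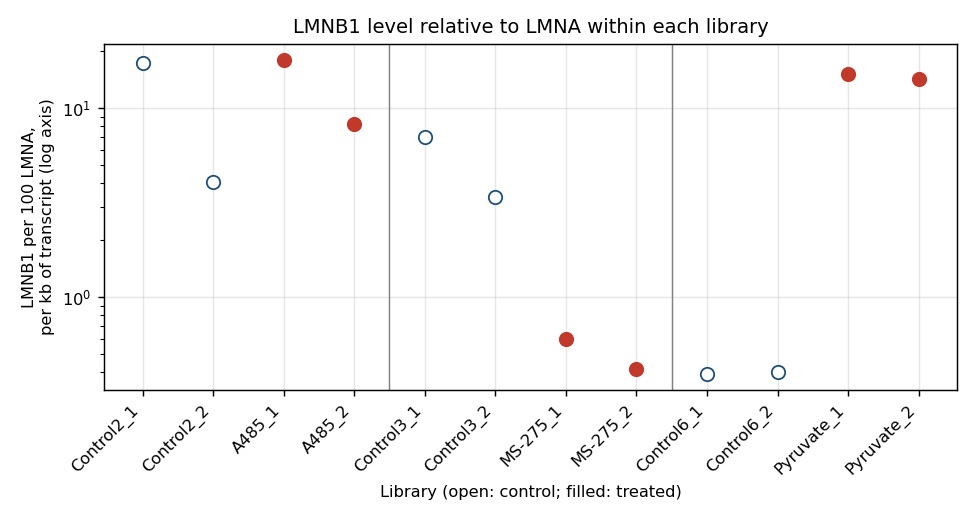
LMNB1 per 100 LMNA, each divided by transcript length, in the 12 libraries (log axis), open for untreated and filled for treated libraries, with vertical lines between experiments. The 2 MS-275 libraries at 0.599 and 0.417 and the 2 Control6 libraries at 0.392 and 0.402 are the lowest of the 12, and the A485 libraries overlap their controls.

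Of 57 other envelope and pore genes tested with MS-275, 0 were called by limma or edgeR, 3 by DESeq2, and 4 had an unadjusted limma p under 0.05. The genes with the smallest p in each list are given as log2 values without a call. CDK1 (-3.08) and PLK1 (-3.54), kinases that phosphorylate the lamina and pores at mitosis, differed most. BIRC5 (-4.11) and RRM2 (-3.65) led the proliferation markers, of which limma and edgeR called 0 of 10 and DESeq2 5, 6 had an unadjusted limma p under 0.05, and the median was -2.71. By the same choice of smallest p, values in the structural lists were -0.59 for SEH1L and -0.56 for NUP62 among pore subunits, 0.72 for TOR1AIP2 and -0.60 for TOR1A among the SUN and torsin partners (whose values ran from -1.08 to 0.72), and -0.78 for FNTB and -0.41 for FNTA among prelamin processing enzymes. TMEM43 (-0.38) and NEMP1 (-0.39) led the other inner membrane proteins, and DHCR7 (0.74) and TM7SF2 (0.44) were the sterol reductases.

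With pyruvate, LMNB1, TMPO, LBR and LEMD3 rose by 5.87 to 31.3 times over Control6, where they had stood lowest of the members. LMNB2 did not pass the test. Of 12013 genes tested, limma called 31.0% higher and 23.1% lower, and 4 of 10 members called higher is close to that background. The tools edgeR and DESeq2 also called 4 of 10 members, all of them higher, beside 53.8% and 53.4% of all genes called in either direction. LMNB1 was 107 and 111 in Control6 and 2347 and 2283 with pyruvate, a fold of 21.1 (log2 fold change 4.40, SE 0.123, limma adjusted p = 1.79e-10). The libraries within each group agreed closely and the groups lay far apart. LMNB2, the other B-type lamin, was 7426 and 6780 in Control6 and 6581 and 6742 with pyruvate (-0.09, SE 0.0640, limma adjusted p = 0.206). The 95% interval of the LMNB2 difference was -0.23 to 0.05.

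LMNA was 28436 and 28614 in Control6 and 16111 and 16607 with pyruvate. It was lower at a log2 fold change of -0.80 (95% interval -0.91 to -0.69, limma adjusted p = 4.61e-08), which did not reach the fold limit. Per kb, LMNA made up 82.8% and 84.1% of the lamins in Control6 and 68.0% and 68.5% with pyruvate, while LMNB1 went from 0.324% and 0.339% to 10.3% and 9.80%. LMNB1 per 100 LMNA was 0.392 and 0.402 in Control6 and 15.2 and 14.3 with pyruvate.

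TMPO rose most of all members, from 91.3 and 91.1 in Control6 to 2739 and 3039 with pyruvate, a fold of 31.3 (log2 fold change 4.97, SE 0.125, limma adjusted p = 1.02e-10). LBR rose from 81.5 and 122 to 1293 and 1281, a fold of 12.8 (log2 fold change 3.68, SE 0.188, limma adjusted p = 9.24e-09). LEMD3 rose from 220.01 and 142 to 938 and 1158, a fold of 5.87 (log2 fold change 2.55, SE 0.199, limma adjusted p = 2.93e-07). None of the 4 overlapped between the groups, as for 90.5% of all genes tested.

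The LEM-domain members TMPO, EMD and LEMD3 differed in sign in this fit. Once a trend on length and GC content was removed they did not, as EMD was also above 0 (0.45). LEMD2, a LEM-domain protein outside the members, then stayed below 0 (-0.31). EMD was 2958 and 2953 in Control6 and 1605 and 1451 with pyruvate (log2 fold change -0.95, SE 0.0801, limma adjusted p = 5.52e-07), opposite in sign to TMPO and LEMD3. BANF1, the shared partner, was 3373 and 3790 against 3191 and 3176 (-0.17, limma adjusted p = 0.0585). SUN2 was 1924 and 2012 in Control6 and 1146 and 1334 with pyruvate (-0.67, SE 0.0943, limma adjusted p = 4.44e-05) and SUN1 was 7889 and 7553 against 6086 and 6256 (-0.32, SE 0.0591, limma adjusted p = 0.000353). LMNA, EMD, SUN1 and SUN2 were thus the 4 of 10 members lower at an adjusted p under 0.05 with no fold limit, and 40.2% of all genes were lower by that rule. Groups did not overlap for all 10 members, as for 90.5% of all genes tested, and the median log2 fold change was -0.13 over the members and -0.01 over all genes.

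In this experiment the difference followed the GC content of the longest transcript of each gene, with a Spearman correlation of -0.70 over 11888 genes. Genes are no independent replicates, so this is a description. The same correlation was -0.11 in the A485 experiment and -0.02 with MS-275. LBR (37.8% GC), TMPO (40.9%) and LEMD3 (43.3%) were AT-rich, and when genes were cut by GC content into 10 groups of equal size, their groups had median log2 fold changes of 1.72, 1.77 and 0.89. LMNA, LMNB2, EMD, BANF1 and SUN2 had 58.5% to 61.1% GC, and the median of their group was -1.07. LMNB1, with 51.1% GC, had a group whose median was -0.34 against its own 4.40. LMNB1, TMPO, LBR, LEMD3, LMNB2 and BANF1 lay above the upper quartile of their GC group, and LMNA, EMD, SUN1 and SUN2 lay between its quartiles.

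After a trend on length and GC content was removed from each library, LMNB1 (5.10), TMPO (3.65), LBR (2.25) and LEMD3 (1.60) were still called higher by limma, with adjusted p of 6.72e-08, 7.05e-08, 6.88e-06 and 0.000282. BANF1 was then called higher too, at 1.18 (limma adjusted p = 7.40e-07). In that fit 2517 of 11888 genes were called higher, and the median of all genes was 0.20. The signs of LMNA (0.44), LMNB2 (0.99), EMD (0.45) and SUN2 (0.26) turned positive, so the direction of these genes rests on that choice. LMNB2 and BANF1 also turned positive with quantile normalization (0.25 and 0.09), as did SUN1 (0.04), where the median of all genes moved to -0.17. With equal library totals they were 0.22 and 0.14, below a median of all genes that this scaling moved to 0.30. Whether the GC slope arose in the cells or in the libraries was not tested.

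**Figure D4:**
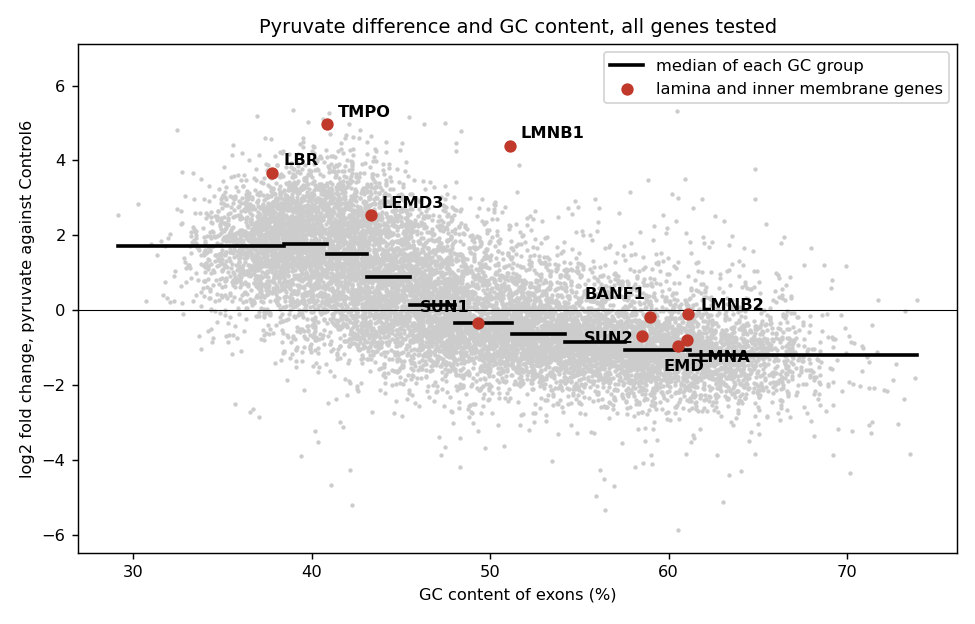
log2 fold change with pyruvate against GC content in percent for all genes tested (grey). GC content is that of the exons in the longest transcript. Black bars show the median of each of 10 equal groups by GC content, and red points show the 10 members. LBR, TMPO and LEMD3 lie above medians of 0.89 to 1.77 at low GC content, and LMNB1 at 51.1% GC lies far above a median of -0.34.

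Other envelope genes changed in both directions with pyruvate. Of 55 tested, 27 were called higher and 8 lower, beside 31.0% and 23.1% of all genes. Among pore subunits 14 of 22 tested were called higher and 0 lower, with a median log2 fold change of 1.87 over a median GC content of 43.5%. NUP153, which docks on the lamina, rose from 283 and 288 in Control6 to 2181 and 2303 (2.97, limma adjusted p = 6.63e-10) and NUP160, a scaffold subunit, from 107 and 126 to 1616 and 1706 (3.83, limma adjusted p = 9.21e-10). With the length and GC trend removed, 10 of the pore subunits were called higher, as were 2517 of 11888 genes.

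The counts of the short lists that follow stand beside 31.0% of all genes called higher and 23.1% called lower. Among the 5 prelamin processing enzymes 2 were called higher and 1 lower. ZMPSTE24, the protease that releases mature lamin A, rose from 559 and 635 to 2496 and 2510 (2.07, limma adjusted p = 4.52e-09), and ICMT, a methyltransferase of the same pathway, fell from 14905 and 14243 to 5754 and 5817 (-1.33, limma adjusted p = 2.34e-09). In the SUN and torsin partners 3 of 7 were called higher and 1 lower, with TOR1AIP1 at 1.88 (limma adjusted p = 2.44e-08) and TOR1B at -1.96 (limma adjusted p = 9.65e-10). Of 5 other inner membrane proteins tested, NEMP1 rose (2.39) and LEMD2 fell (-1.07). Both sterol reductases fell, TM7SF2, which carries out the same reduction as LBR, with a log2 fold change of -1.99 and DHCR7 with -1.15, while LBR rose. The factors of envelope breakdown and resealing had 7 of 14 called higher and 3 lower, with CCNB1 at 2.11 and VPS4B, an ATPase of membrane resealing, at 2.38. With the length and GC trend removed, ZMPSTE24 (0.73), ICMT (-0.99), NEMP1 (0.93), LEMD2 (-0.31), TM7SF2 (-0.50) and DHCR7 (0.10) were no longer called, and DHCR7 changed sign.

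The proliferation markers were called higher in 8 of 10, beside 31.0% of all genes. Their median log2 fold change was 2.89, and PCNA (2.46) and RRM2 (2.31) had the smallest p. Their summed value was 4547 and 4568 in Control6 and 19684 and 20225 with pyruvate. Their part in the LMNB1, TMPO, LBR and LEMD3 values was not tested.

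**Figure D5:**
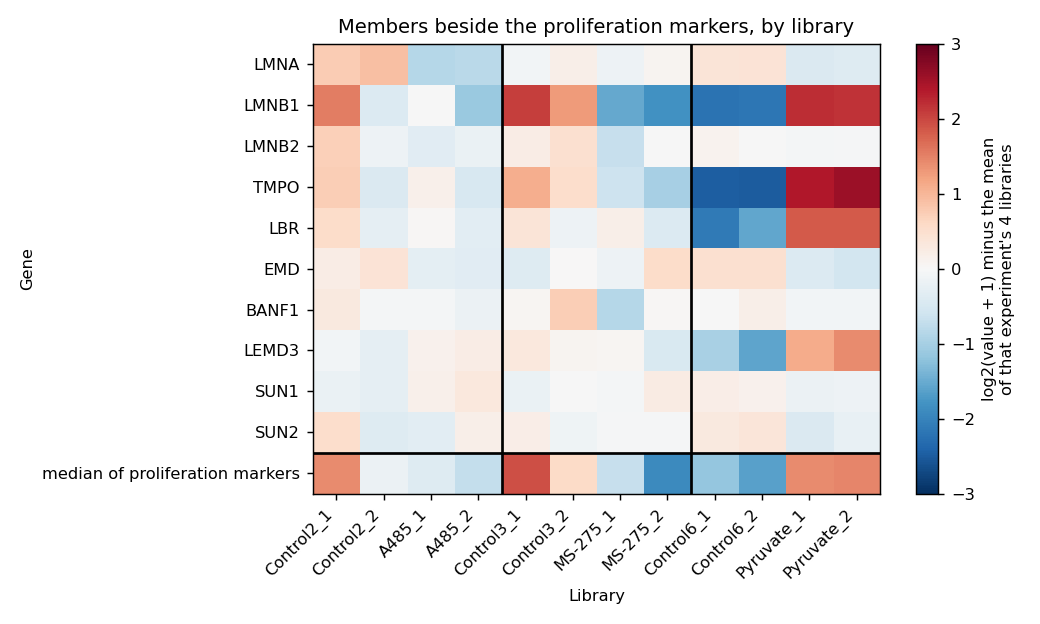
Heat map of log2(value + 1) minus the mean of that experiment's 4 libraries for the 10 members and, in the bottom row, the median of the 10 proliferation markers, one column per library. LMNB1 and TMPO are high in Control2 replicate 1, in both Control3 libraries and in both pyruvate libraries, as is the bottom row, while LMNA, EMD and SUN1 show another pattern.

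The gene whose profile was most like that of LMNB1 over the 12 libraries, each centred on its experiment, was SHCBP1, with a Pearson correlation of 0.99 among 11988 genes compared. SKA3 (0.99), NCAPH (0.99), MCM10 (0.99) and KIF4A (0.99) followed, and SKA3, NCAPH, MCM10 and KIF4A are known for spindle attachment, chromosome condensation, replication and the mitotic spindle. Their log2 fold changes were -1.59 to -0.72 with A485, -3.53 to -2.59 with MS-275 and 2.97 to 4.70 with pyruvate. Of the members, TMPO ranked 72 (0.93), LBR 599 (0.83) and LEMD3 1011 (0.78), and LMNB2 ranked 4146 (0.44). LMNA (-0.15), SUN2 (-0.30), EMD (-0.65) and SUN1 (-0.71) had correlations below 0. These correlations have 12 points in 3 experiments, share the size factor of each library and follow mainly the differences between the pyruvate and Control6 libraries and between the MS-275 and Control3 libraries. They are given as a description without a p-value.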

How the data were processed

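RNA-seq libraries of IMR90 cells were examined in 3 experiments of 4 libraries. Per the labels, reads were trimmed with Trim Galore 0.6.10, aligned to hg38 with HISAT2 2.2.1, handled with SAMtools 1.7 and counted with featureCounts 2.0.6. The deposited values are a signal: read counts that the authors divided by 1 DESeq2 (1.34.0) size factor per library, separately in each experiment. Annotation and strand setting were not given in the sources used here. Genes nearly without reads had been left out of the tables.

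Differences were tested with limma 3.58.1 (R 4.3.3) on log2(value + 1) with an intensity trend, over genes averaging 10 or more across the 4 libraries of an experiment. P-values were adjusted over all genes tested by Benjamini and Hochberg. Calls needed an adjusted p under 0.05 and an absolute log2 fold change over 1. Whole reads were recovered by dividing by the value of 1 read (100% whole within 0.001) and tested with edgeR 4.0.16 and DESeq2 1.42.0 as alternatives. In 5 libraries, whose size factors lie near 1 or which have few low values, an independent test of this recovery could not be made. The limma fit was tested on simulated data with the same fixed spread in each experiment, where it recovered the changes put in. That spread was not taken from the real libraries, so the test does not show how many changes were missed, as with MS-275.

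Named genes were the 10 members, the 2 genes of smallest p in each list and the 5 most like LMNB1. Members and lists were chosen with earlier results of these data known. Levels per kb and GC content used the longest GENCODE v44 transcript. Muscle libraries of the series were not used.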

Additional observations from a re-analysis of the deposited data

How the results depend on the processing

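The number of members called with A485 (1) became 2 with a replicate block, with or without the length and GC trend removed, the added gene being LMNB1 (limma adjusted p = 0.0123), where the block called 15.5% of all genes, and 0 to 1 when single libraries were left out. With MS-275 (0 called) it became 2, LMNB1 and TMPO, with the replicate block (limma adjusted p = 3.11e-10 and 2.43e-08, with 13.7% of all genes called), with the block and the trend removed, with DESeq2 and with a shared fit of 12 libraries, and 0 to 1 when single libraries were left out. With pyruvate (4 called) it became 7 at a fold limit of 0.58 and 4 to 5 when single libraries were left out. The share of all genes called with pyruvate at a fold limit of 0.58 is not given here. A group left with 1 library was assumed to vary like the other group. The replicate numbers are not said to pair libraries: deviations of same-numbered libraries correlated at 0.316 with A485, 0.728 with MS-275 and 0.0020 with pyruvate, over 2 pairs each, and the block changed no call of a member with pyruvate.

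Signs of single genes turned where values were near 0. With A485 they turned at equal library totals for TMPO (0.084), LBR (0.12), BANF1 (0.15) and SUN2 (0.25). Making totals equal moved the median of all genes to 0.40 with A485, -0.15 with MS-275 and 0.30 with pyruvate. Quantile normalization moved it to 0.12 and -0.17 with A485 and pyruvate. Removal of the length and GC trend moved it to 0.20 with pyruvate. With A485 at equal totals TMPO, LBR, BANF1 and SUN2 stayed below the median gene, as did LMNB2 and BANF1 with pyruvate. Without single libraries the A485 values ran from -0.89 to 0.27 for TMPO, -0.69 to 0.14 for LBR and -0.60 to 0.31 for SUN2, and the MS-275 values from -0.21 to 0.050 for LMNA, -0.54 to 0.061 for LBR and -0.22 to 0.092 for SUN2. With pyruvate, quantile normalization turned LMNB2 (0.25), BANF1 (0.093) and SUN1 (0.040), equal totals turned LMNB2 (0.22) and BANF1 (0.14), and removal of the length and GC trend, with or without the block, turned LMNA (0.44), LMNB2 (0.99), EMD (0.45), BANF1 (1.18) and SUN2 (0.26). Of 570 single-gene values over all alternatives, 523 kept direction and side of the threshold, 29 turned, 16 gained a call and 2 lost one. Causes of these shifts were not tested. The 3 experiments were scaled separately, so levels across them carry that uncertainty.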
